A study of Mus musculus and blank sample with 768 samples.

Results

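The wells described here held single GFP+ endothelial cells sorted from mouse tumours, divided by whether a read of Fabp4 was found. They filled 2 plates, KM3 and KM4, and wells were selected on the Fabp4 count itself: at least 1 read made a well Fabp4+ and 0 reads made it Fabp4-. A well was kept with 50000 or more reads, 1000 or more detected genes and no more than 25% of reads from mitochondrial genes, which removed 12 wells of KM3 and 11 of KM4. The Fabp4+ side held 58 wells, 28 on KM3 and 30 on KM4. The Fabp4- side held 56 wells on KM3 and 55 on KM4, and percentages given for it below are of these wells together. The whole series holds 768 wells, of which 592 passed the same filter.

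Both sides of the split came from one gate, CD45- CD31+ GFP+, which the labels call Csf1r lineage endothelial cells (CLEC). Every well therefore carried the GFP label and the surface marker CD31 (Pecam1) and lacked the leukocyte marker CD45 (Ptprc). The other tumour wells were endothelial cells without GFP (EC, gate CD45- CD31+ GFP-, plate KM2, 84 wells kept) and macrophages (gate CD45+CD31-GFP-, plate KM1, 81 wells kept). Lymph node endothelial cells without GFP (gate CD45- CD31+ GFP-, 74 wells kept) came from pools A, B and C. The sources used here give no animal, strain, age, tumour type or reporter construct, so wells are not replicates and each side of the split is 1 sample per plate. No test was run for that reason, and the spread given is that between the 2 plates, which may be technical.

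Fabp4 encodes a fatty acid binding protein of the cytoplasm. It is abundant in adipocytes and is also made by microvascular endothelial cells, where VEGF and the Notch ligand Dll4 are known to raise it. Capillary endothelium that takes up fatty acids carries Gpihbp1, the anchor that brings lipoprotein lipase to the vessel lumen. Growing vessels are led by tip cells, which express genes such as Esm1, Apln and Angpt2.

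In Fabp4+ wells the count of Fabp4 (chr3:10204088-10208576, minus strand) ran between 1 and 2649 reads. The wells just inside the threshold held 1, 1, 5, 5, 6 and 6 reads, and those just outside it held 0. Scaled to counts per 1000000 reads of the well (CPM), Fabp4 was lowest at 1.17, had a median of 225.4 and was highest at 2098. Fabp4+ wells lay in 8 of 8 rows and 11 of 12 columns of each plate. Fabp4 had reads in 5 of 84 GFP- EC wells and in 0 of 81 macrophage wells. A bound of 3 wells puts the macrophage share at up to 3.70%, which is not an exact interval like those below.

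Genes were compared inside each plate as the log2 ratio of Fabp4+ over Fabp4- CPM of summed reads, each plus 1 CPM, and the values of the plates were averaged. A gene was called where it was at least 2-fold apart in one direction on both plates and also by the mean of per-well CPM. Among 10988 measured genes, 386 were called higher (3.51%) and 567 lower (5.16%), and the median log2 ratio was -0.06. The calls over all measured genes are given as a description, because unchanged genes in simulated wells gave counts of calls of a similar size. Across measured genes, 427 were at least 2-fold higher on both plates and 604 at least 2-fold lower on both, but 723 were at least 2-fold apart on both plates in opposite directions. Across these genes the ratios of KM3 and KM4 had a Pearson r of 0.11; genes are not independent replicates.

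A smaller set held the 4114 genes that reached 20 CPM and 25% of wells on the same side on both plates, a rule that itself removes genes high on opposite sides of the 2 plates. There, 65 genes were at least 2-fold higher on both plates, 58 were at least 2-fold lower on both, and 22 were 2-fold apart in opposite directions. Of these genes 61 were called higher (1.48%) and 51 lower (1.24%). The Pearson r between plates was 0.27 and the Spearman rho 0.23. Below, 15 genes are named in each direction, those of largest ratio among called genes at this level, so their size is that of the extremes of a ranking and is given as a description.

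**Figure D1:**
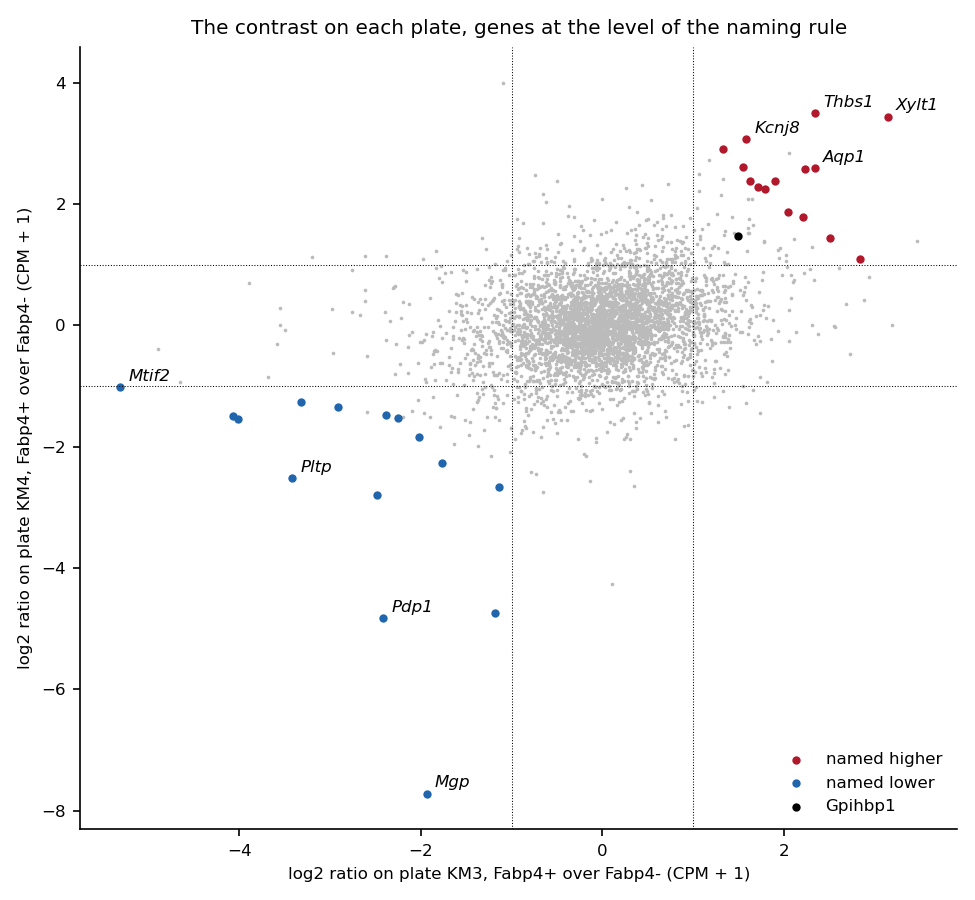
Log2 ratio of Fabp4+ over Fabp4- wells on plate KM3 (x axis) and plate KM4 (y axis), each from CPM + 1 of summed reads, for the genes at the level above. Red points are the 15 genes named higher, blue points the 15 named lower and dotted lines mark a 2-fold difference; most genes lie in the central cloud, where the plates correlated with a Pearson r of 0.27.

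Depth and detected genes differed little between the 2 sides. Fabp4+ wells had a median of 802754.5 reads, 2996 genes and 3.56% mitochondrial reads, and Fabp4- wells 808197 reads, 3064 genes and 3.37%. Ptprc had 0 reads on both sides and Pecam1 had reads in 57 of 58 Fabp4+ wells and 96.4% of Fabp4- wells. The 12 general endothelial genes had none called in either direction and a median log2 ratio of 0.10. Of 10 adipocyte genes other than Fabp4, 9 were at 0 in Fabp4+ wells, Adipoq and Plin1 among them, and 6 were at 0 in Fabp4- wells. Their summed level per well ran between 0 and 352.8 CPM in Fabp4+ wells and between 0 and 2548 CPM in Fabp4- wells, with a median of 0 on both sides.

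The macrophage list had reads in 17 of 58 Fabp4+ wells and 26 Fabp4- wells (23.4%), up to 466.3 and 647.9 CPM per well, and Tyrobp at 0 on both sides. The haematopoietic list had reads in 7 Fabp4+ and 11 Fabp4- wells, the platelet and erythroid list in 5 Fabp4+ and 19 Fabp4- wells, the T and B cell list in 2 wells of each side, and the epithelial list in 0 Fabp4+ wells and 1 Fabp4- well. Their part in other ratios was not tested. Of 5 measured lymphatic genes Lyve1, a hyaluronan receptor, was called lower, beside 5.16% of all measured genes. Lyve1 had reads in 3 of 58 Fabp4+ and 15 Fabp4- wells (13.5%). Prox1, the lymphatic master regulator, had reads in 1 Fabp4+ well and 0 Fabp4- wells. In bulk sums such as these, fewer cells with a gene and less RNA per cell cannot be told apart, so shares of wells are given beside levels.

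Of 10 channel genes, 3 were called higher in Fabp4+ wells, beside 3.51% of all measured genes. The count is a description only. Aqp1 and Kcnj8, like Gpihbp1 below, were given as markers of the split with earlier results of these data known. Aqp1, a water channel, Kcnj8, the pore of an ATP-sensitive potassium channel, and Abcc9, the regulatory subunit of that channel, made up the 3. They are shown with the 250 bases before their RefSeq start (build GRCm38.p6, the assembly of mm10), because Kcnj8 and Abcc9 are neighbours on chromosome 6 with 16247 bases between them. Aqp1 lies at chr6:55336432-55348555 on the plus strand (GENCODE vM21), and its RefSeq promoter, at chr6:55336049-55336298, precedes a start upstream of that position. Kcnj8 (chr6:142564837-142571614) and Abcc9 (chr6:142587862-142702315) lie on the minus strand, with promoters at chr6:142571615-142571864 and chr6:142702275-142702524. Capitals mark the letters TGGGAA, or TTCCCA on the other strand, which the Notch effector Rbpj is known to bind.
Aqp1: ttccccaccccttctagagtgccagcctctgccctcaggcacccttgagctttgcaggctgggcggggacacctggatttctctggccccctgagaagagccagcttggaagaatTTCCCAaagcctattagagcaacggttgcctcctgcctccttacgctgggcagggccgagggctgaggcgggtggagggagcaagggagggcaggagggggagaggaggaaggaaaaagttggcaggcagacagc
Kcnj8: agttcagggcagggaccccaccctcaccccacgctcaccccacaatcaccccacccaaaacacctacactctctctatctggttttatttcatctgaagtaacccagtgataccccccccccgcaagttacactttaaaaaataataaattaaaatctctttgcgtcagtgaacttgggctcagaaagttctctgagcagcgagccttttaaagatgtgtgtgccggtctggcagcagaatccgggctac
Abcc9: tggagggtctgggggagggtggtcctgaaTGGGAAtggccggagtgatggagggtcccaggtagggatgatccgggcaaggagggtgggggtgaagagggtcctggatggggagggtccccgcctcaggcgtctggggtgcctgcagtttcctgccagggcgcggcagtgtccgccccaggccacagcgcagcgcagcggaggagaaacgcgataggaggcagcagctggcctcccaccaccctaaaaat

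The Aqp1 and Abcc9 promoters each held 1 TGGGAA, at bases -135 and -221 from the start, and Kcnj8 held none. None of the 3 held ACGTG (the core bound by hypoxia-inducible factors), GTAAACA (forkhead factors) or TGANTCA (AP-1), with both strands searched and no overlap between these motifs in the 3. TGGGAA occurred in 24.1% of the 27025 genes with a promoter in the table, ACGTG in 18.5%, GTAAACA in 3.54% and TGANTCA in 7.82%. Of the 15 genes named higher, 10 were in the table, and 3, 5, 1 and 2 of them held these motifs in that order. A match is a description of letters only, and the motifs and promoters were chosen after the values were seen.

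Aqp1 had reads in 39 of 58 Fabp4+ wells, against 17 Fabp4- wells (15.3%). Per well it ran between 0 and 1579 CPM with a median of 73.9 in Fabp4+ wells, and between 0 and 1518 CPM with a median of 0 in Fabp4- wells. The sides overlapped, and differed in how many wells held a read. On KM3 the summed level was 220.8 CPM in Fabp4+ wells (exact Poisson 95% interval 215.1 to 226.6) and 42.8 CPM in Fabp4- wells (40.9 to 44.7). On KM4 it was 227.6 CPM in Fabp4+ wells (222.1 to 233.3) and 36.8 CPM in Fabp4- wells (35.2 to 38.5). The log2 ratio was 2.47 ± 0.18 (SD of the 2 plates). With every well thinned to 100000 reads, Aqp1 was found in 64.9% of Fabp4+ wells (exact Clopper-Pearson 95% interval 51.1 to 77.1) and 13.6% of Fabp4- wells (7.8 to 21.5), against 67.2% and 15.3% at full depth. The Poisson intervals here count reads as independent, which amplified reads are not, and leave out the spread between wells. The Clopper-Pearson intervals, here and below, count wells as independent draws, although wells are not replicates. Neither kind covers the spread between plates or animals.

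Kcnj8 had reads in 34 of 58 Fabp4+ wells and 23 Fabp4- wells (20.7%). Its median was 112.2 CPM in Fabp4+ wells, with a range of 0 to 3000 CPM, and 0 in Fabp4- wells, with a range of 0 to 1551 CPM. Its summed level was 337.8 CPM in Fabp4+ and 111.8 CPM in Fabp4- wells on KM3, and 460.1 CPM in Fabp4+ and 53.9 CPM in Fabp4- wells on KM4. The ratio was 2.33 ± 1.05 and was above 2-fold on both plates, although it was larger on KM4 (3.07) than on KM3 (1.59).

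Abcc9 was found in 49 of 58 Fabp4+ wells and 50 Fabp4- wells (45.045%), with medians of 305.5 and 0 CPM and a log2 ratio of 1.64 ± 0.82. On KM3 its ratio was 1.06, near the 2-fold limit, and it lost the call in 4 of 13 alternative settings that could change it. Kcnj8 and Abcc9 were found together in 31 of 58 Fabp4+ wells (53.4%, exact interval 39.9 to 66.7) and 19 Fabp4- wells (17.1%, 10.6 to 25.4). Both genes also mark pericytes, the cells that wrap capillaries. The pericyte and fibroblast genes Pdgfrb, Rgs5, Cspg4, Des, Col1a1 and Dcn were at 0 on both sides, and 10 of the 11 genes of that list were at 0 in Fabp4+ wells and 10 in Fabp4- wells, with 1 well above 0 on each side.

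The other 7 genes of the list of water, potassium and solute channels were not called, and the median log2 ratio of all 10 was 1.06. Kcne3, a potassium channel subunit, had a ratio of 1.02 and Slc6a6, the taurine transporter, 1.10; neither was called. The mechanosensitive channels Piezo1 and Piezo2 had ratios of 0.18 and -0.02.

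**Figure D2:**
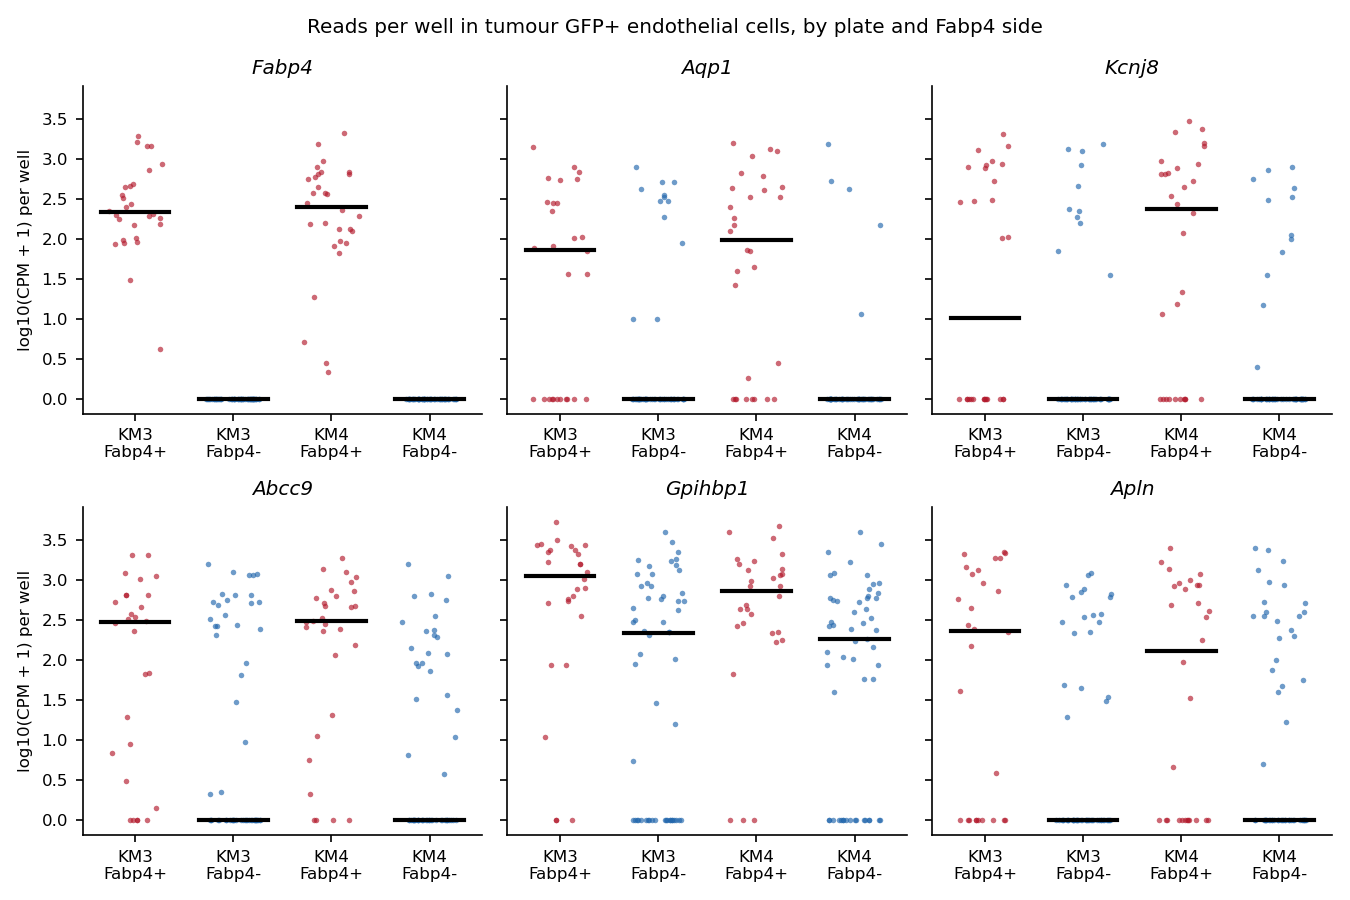
CPM per well, as log10(CPM + 1), of 6 genes in the wells of plates KM3 and KM4; each point is 1 well, black bars are medians, red is Fabp4+ and blue is Fabp4-. Fabp4 chose the sides; Aqp1 and Kcnj8 were at 0 in most Fabp4- wells (reads in 15.3% and 20.7%), and in Gpihbp1 and Apln the sides overlapped widely.

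Gpihbp1 (chr15:75596628-75599481, plus strand) was the fatty acid gene that was called higher. It had reads in 52 of 58 Fabp4+ wells and 73 Fabp4- wells (65.8%). Medians per well were 1146 CPM in Fabp4+ and 217.1 CPM in Fabp4- wells on KM3, and 741.7 and 181.7 CPM on KM4. Wells reached 5324 CPM in Fabp4+ and 4077 CPM in Fabp4- wells, so the sides overlapped. The summed level was 1292 CPM in Fabp4+ and 458.5 CPM in Fabp4- wells on KM3, and 1096 and 392.1 CPM on KM4. The log2 ratio, 1.49 ± 0.0089, was nearly the same on the 2 plates.

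Of the 8 measured genes of fatty acid uptake, Gpihbp1 alone was called, beside 3.51% of all measured genes, and the list had a median of 0.99. Pparg, a transcription factor that drives Fabp4 in adipocytes, had reads in 8 of 58 Fabp4+ and 2 Fabp4- wells (1.80%), but its ratio was -0.01 on KM3 and 4.54 on KM4. The fatty acid transporter gene Slc27a4 had a ratio of 1.18 and was not called, and Slc27a1 pointed in different directions on the 2 plates. The 11 measured genes of fatty acid oxidation had none called and a median of -0.13. Among 6 capillary genes Gpihbp1 was again the only one called. All 6 had an averaged ratio above 0 (median 0.58), 4 of them on both plates.

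Wells with no read of any of Aqp1, Kcnj8 and Gpihbp1 numbered 0 of 58 on the Fabp4+ side (exact interval up to 6.16%) and 34 on the Fabp4- side (30.6%, 22.2 to 40.1). Aqp1 and Kcnj8 were found together in 20 of 58 Fabp4+ wells (34.5%, 22.5 to 48.1) and 7 Fabp4- wells (6.31%, 2.57 to 12.6). Inside Fabp4+ wells the amount of Fabp4 gave at most a loose order to Aqp1, Kcnj8 and Gpihbp1. Its Spearman rho with Aqp1 was -0.06 over 28 wells of KM3 and 0.42 over 30 wells of KM4. With Kcnj8 it was 0.19 and 0.21, and with Gpihbp1 0.22 and 0.16. The points share their library and depth.

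Angiogenic tip genes leaned towards Fabp4+ wells. Of 17 measured genes of this list 6 were called higher, beside 3.51% of all measured genes, and 0 lower; 13 were above 0 on both plates, and the median log2 ratio was 1.02 beside -0.06 over all measured genes. The medians were 0.90 on KM3 and 0.97 on KM4. A median of 11 of the 17 genes had reads in Fabp4+ wells (range 2 to 17), and 8 in Fabp4- wells (range 2 to 15).

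Angpt2, a ligand that loosens vessels for sprouting, was at 485.3 CPM in Fabp4+ and 177.1 CPM in Fabp4- wells on KM3, and at 639.2 and 221.2 CPM on KM4, a ratio of 1.49 ± 0.05. It was found in 32 of 58 Fabp4+ and 30 Fabp4- wells (27.03%). Dll4, the Notch ligand of tip cells, had a ratio of 1.10 ± 0.06 and reads in 42 of 58 Fabp4+ and 57 Fabp4- wells (51.4%).

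Esm1, a proteoglycan of tip cells, had a ratio of 1.73 ± 0.59, with reads in 19 of 58 Fabp4+ wells and 16 Fabp4- wells (14.4%). On KM4 a single well held 42.5% of its summed CPM in Fabp4+ wells and another 46.1% in Fabp4- wells. The growth factor gene Pgf (1.72 ± 0.04), the receptor component Ramp3 (1.24 ± 0.24) and the chemokine receptor gene Cxcr4 (1.39 ± 0.35) were the others called, Cxcr4 at only 7.18 and 8.05 CPM in Fabp4+ wells, against 2.72 and 1.91 CPM in Fabp4- wells. Pgf was found in 10 of 58 Fabp4+ and 13 Fabp4- wells (11.7%).

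Apln, a peptide secreted by tip cells, and Adm, a vasoactive peptide, were not called because KM4 fell short of 2-fold. Apln was at 692.7 CPM in Fabp4+ and 168.5 CPM in Fabp4- wells on KM3, and at 646.2 and 332.2 CPM on KM4. Igfbp3, the most abundant gene of the list, did not follow it: its ratio was -0.19, with reads in 57 of 58 Fabp4+ and 110 Fabp4- wells (99.1%). Plaur, the urokinase receptor, had a ratio of -0.75. The tip calls depended on a few wells: 3 of 17 genes were called with the highest well of each gene left out, which took out Pgf, Ramp3 and Cxcr4, and 2 of 17 without wells that held reads of 5 or more of 13 proliferation genes, a setting chosen after seeing the data.

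Notch genes included 3 of 11 called higher (3.51% of all measured genes) and 0 lower, with a median of 0.60. These were Dll4, the target gene Hey1 (1.57 ± 0.05) and Lfng, a modifier of Notch receptors (2.39 ± 0.20). Hey1 had reads in only 11 of 58 Fabp4+ and 8 Fabp4- wells (7.21%), and Lfng in 10 and 7. Without the highest well of each gene Hey1 and Lfng lost the call, and Dll4 lost it with the split at 10 CPM of Fabp4 and with a stricter filter on wells. Hes1, another Notch target, had a ratio of -0.48 and pointed the same way on both plates.

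Of 8 genes for VEGF ligands and receptors, the ligands Vegfb and Pgf were called higher (3.51% of all measured genes), Vegfb from reads in 6 of 58 Fabp4+ and 4 Fabp4- wells (3.60%). The receptor genes Kdr (0.14), Flt1 (0.40) and Flt4 (0.54) were not called. Hypoxia and glycolysis genes had 2 of 11 called higher (3.51% of all measured genes) and 0 lower. These were Ndrg1 (1.77 ± 0.49) and Bnip3 (2.36 ± 1.397), both known targets of hypoxia. Ndrg1 had reads in 38 of 58 Fabp4+ and 54 Fabp4- wells (48.6%), and Bnip3 in 15 of 58 Fabp4+ and 12 Fabp4- wells (10.8%). The list's median was 0.73 on KM3 and 0.14 on KM4.

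**Figure D3:**
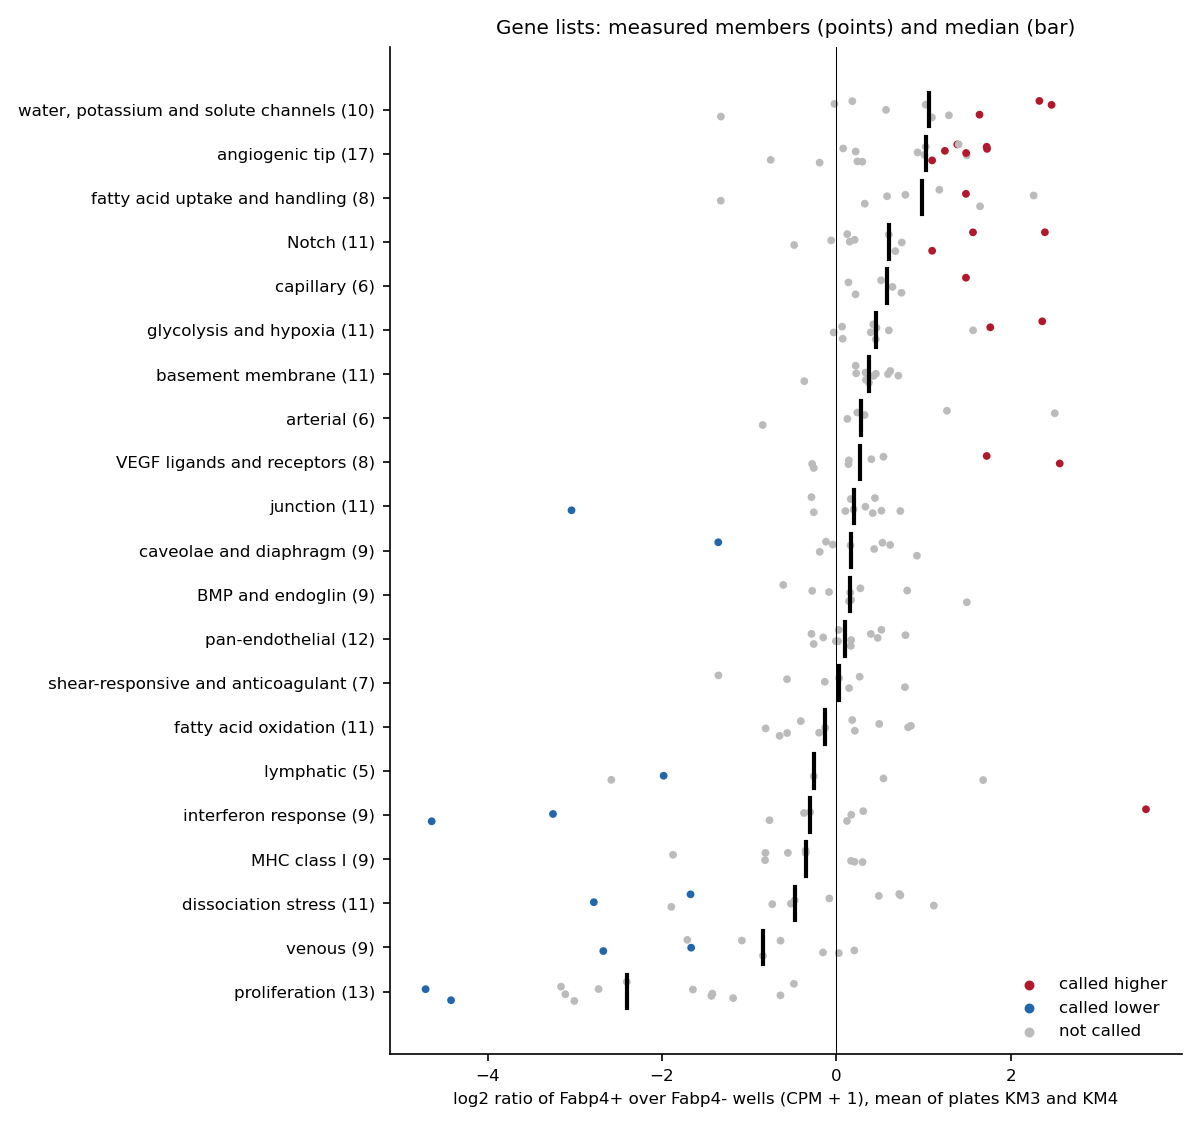
Log2 ratio of Fabp4+ over Fabp4- wells (CPM + 1, mean of plates KM3 and KM4) for the measured genes of each list with 5 or more; points are genes, red if called higher and blue if called lower, and black bars are list medians. Channel and tip lists had medians of 1.06 and 1.02, and the proliferation list had the lowest at -2.40, which came mostly from KM3.

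Few genes of the vessel wall were called. Of 11 basement membrane genes none was called, but 9 were above 0 on both plates and the median was 0.37; Col4a1 had a ratio of 0.34 and Sparc 0.45. Of 9 genes of caveolae and the diaphragm, Sdpr (Cavin2) was called lower (-1.35 ± 0.49), beside 5.16% of all measured genes. That call was lost in 6 of 13 settings that could change it, and Plvap had a ratio of 0.53. Among 11 junction genes Ocln was called lower (5.16% of all measured genes), with reads in 3 of 58 Fabp4+ and 22 Fabp4- wells (19.8%). BMP genes (median 0.16), shear-responsive genes (0.03), arterial genes (0.28), MHC class I genes (-0.35) and MHC class II genes (-0.06) had none called. For some lists the averages hide plates that differed. Arterial genes had medians of 1.50 on KM3 and -0.01 on KM4, and MHC class II genes 0.93 and -1.49. Medians of the BMP, shear-responsive and MHC class I lists lay between -0.40 and 0.22 on each plate.

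Beyond the lists, the genes named higher included Thbs1, an adhesive glycoprotein that restrains angiogenesis, and Xylt1, which starts the glycosaminoglycan chains of proteoglycans. Xylt1 was at 48.7 CPM in Fabp4+ and 4.64 CPM in Fabp4- wells on KM3, and at 52.5 and 3.94 CPM on KM4 (ratio 3.29 ± 0.21). It had reads in 23 of 58 Fabp4+ wells, up to 681.1 CPM, and 12 Fabp4- wells (10.8%), up to 103.3 CPM, with a median of 0 on both sides. Thbs1 was found in 21 of 58 Fabp4+ and 13 Fabp4- wells (11.7%), with a ratio of 2.92 ± 0.82, and on KM4 a single well held 53.6% of its summed CPM in Fabp4+ wells.

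The other genes named higher were Rftn2 (2.402), Ripk3 (2.14), Camta2 (2.12), Ctgf (2.08), Zfp592 (2.02), Gas7 (2.00), Adam19 (2.00), Enpp6 (1.99), Lpin3 (1.97), Slc16a3 (1.97) and Fam102a (1.95), each with its log2 ratio. Ripk3 is a kinase of necroptosis, Ctgf a matrix protein induced by mechanical signals, Slc16a3 a lactate exporter and Adam19 a membrane protease. Ctgf was found in 24 of 58 Fabp4+ and 40 Fabp4- wells (36.04%), while its ratio was above 2-fold on both plates. In all 13 alternative settings that could change a call, it was kept by 10 of the 15 genes, among them Xylt1, Thbs1, Aqp1 and Kcnj8, whereas Enpp6 kept it in 7.

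Several genes named lower were found in few Fabp4+ wells. Mgp, an inhibitor of calcification and of BMP signalling, had reads in 4 of 58 Fabp4+ wells and 33 Fabp4- wells (29.7%). It was at 31.4 CPM in Fabp4+ and 122.9 CPM in Fabp4- wells on KM3, where 1 well held 99.9% of the Fabp4+ CPM. On KM4 only 2 reads were found in Fabp4+ wells (0.072 CPM, exact Poisson 95% interval 0.0087 to 0.258), against 224.7 CPM in Fabp4- wells.

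Pltp, a phospholipid transfer protein, was found in 5 of 58 Fabp4+ and 40 Fabp4- wells (36.04%). It was at 12.4 CPM in Fabp4+ and 142.2 CPM in Fabp4- wells on KM3, and at 27.1 and 160.5 CPM on KM4, a ratio of -2.97 ± 0.63. Scgb3a1, a secreted protein of the secretoglobin family, was found in 7 of 58 Fabp4+ and 37 Fabp4- wells (33.3%), with a ratio of -2.64 ± 0.22. Both sides overlapped for these genes, since wells with 0 reads made up most of each.

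The others named lower, with their log2 ratios, were Pdp1 (-3.62), Mtif2 (-3.17), Slc7a5 (-2.97), Egr1 (-2.78), Dnmt1 (-2.78), Xdh (-2.30), Hmgb2 (-2.12), Nop16 (-2.02), D5Ertd579e (-1.94), Slc39a8 (-1.93), Nr4a1 (-1.90) and Lnpep (-1.89). Egr1 and Nr4a1 are immediate early genes, Slc7a5 carries large neutral amino acids, and Dnmt1 and Hmgb2 are high in dividing cells. Hmgb2 and Nr4a1 were found more widely than the others, in 21 and 17 of 58 Fabp4+ wells. Several ratios rested mostly on one plate: Mtif2 had 7 reads in Fabp4+ wells of KM3 and a ratio of -1.02 on KM4, and Pdp1 had 9 reads in Fabp4+ wells of KM4.

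The high endothelial venule list had 1 measured gene, Ackr1. Venous genes had 2 of 9 called lower (5.16% of all measured genes) and 0 higher, with a median of -0.84. They were Ackr1, a chemokine-binding receptor of venules (-2.67 ± 1.13), and Icam1, a leukocyte adhesion molecule (-1.67 ± 0.04). Ackr1 had reads in only 3 of 58 Fabp4+ and 9 Fabp4- wells (8.11%). Nr2f2, the transcription factor of venous identity, had a ratio of -1.49 on KM3 and 0.21 on KM4. Of 11 genes raised by tissue dissociation, Egr1 and Fosb were called lower, beside 5.16% of all measured genes, and the median was -0.48. Of 9 interferon response genes, Rsad2 was called higher and Ifit3 and Oas1a lower, beside 3.51% and 5.16% of all measured genes. Ifit3 had reads in 0 of 58 Fabp4+ and 9 Fabp4- wells (8.11%), and lost the call with its highest well left out.

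Proliferation genes differed between plates. Of 13 genes, Top2a and Ccnb1, both needed for mitosis, were called lower, beside 5.16% of all measured genes. The median was -2.40, but this was -3.87 on KM3 and -0.40 on KM4. Wells with reads of 5 or more of these genes numbered 0 of 28 Fabp4+ (exact interval up to 12.3%) and 14 of 56 Fabp4- wells on KM3. On KM4 they numbered 9 of 30 Fabp4+ and 14 of 55 Fabp4- wells. Top2a had 0 reads in Fabp4+ wells of KM3 and reads in 3 Fabp4+ wells of KM4, against 12 Fabp4- wells of KM3 and 11 of KM4. Mki67 itself pointed in opposite directions, with ratios of -3.33 on KM3 and 0.46 on KM4. With these wells left out on both sides, a setting chosen after seeing the data, 13 of the 15 genes named higher and 11 of the 15 named lower kept their calls. Lpin3 and Fam102a lost the call among those named higher, and Mtif2, Slc7a5, Dnmt1 and Nr4a1 among those named lower, as did Top2a. Aqp1 then had a ratio of 2.23, Kcnj8 2.08, Gpihbp1 1.38 and the tip list a median of 1.05.

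The levels were also set beside GFP- EC of the same tissue. These wells share no plate with the split, so sorting gate and plate cannot be told apart. Fabp4+ CLEC wells were at least 2-fold above GFP- EC for 13 of the 15 genes named higher, and Fabp4- CLEC wells for 2 of the 15. Aqp1 was at 224.3 CPM in Fabp4+ CLEC, 39.7 CPM in Fabp4- CLEC and 11.2 CPM in GFP- EC. Kcnj8 was at 400.9, 81.9 and 26.2 CPM in that order, so that for both genes Fabp4- CLEC lay between the others. That order was not the usual one: Fabp4- CLEC lay above GFP- EC for 6 of the 15 genes named higher. Lpin3, for example, was at 55.3, 16.6 and 74.8 CPM in the same order of groups. Of the 15 genes named lower, 12 were at least 2-fold below GFP- EC in Fabp4+ CLEC and 1 in Fabp4- CLEC. These genes were chosen for the difference between the CLEC sides, so the counts describe where GFP- EC fell and test nothing.

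**Figure D4:**
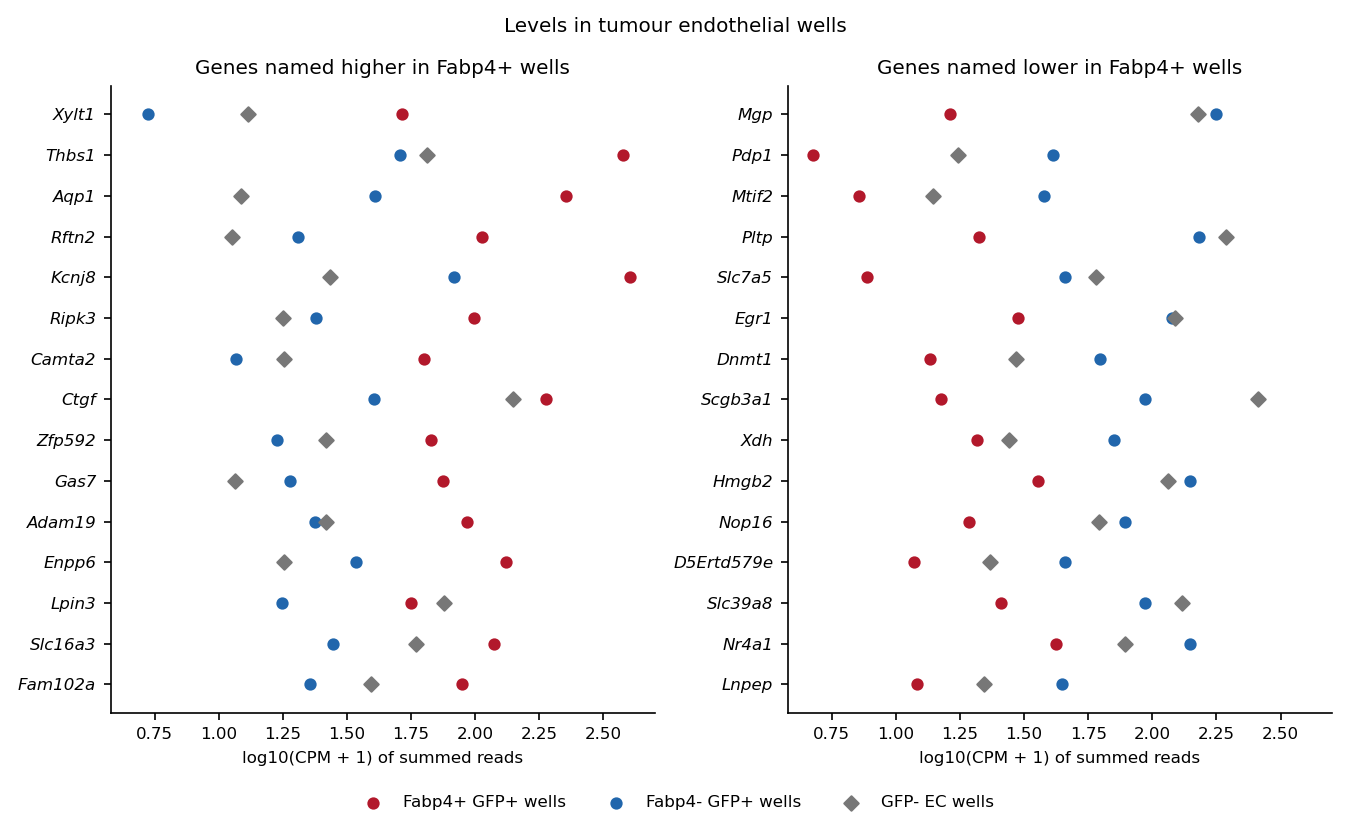
Level of each named gene, as log10(CPM + 1) of summed reads, in Fabp4+ GFP+ wells (red), Fabp4- GFP+ wells (blue) and GFP- EC wells (grey diamonds) of tumours. For 13 of the 15 genes named higher, Fabp4+ wells lay at least 2-fold above GFP- EC.

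The same split was made in wells that did not enter the naming of genes. In tumour GFP- EC only 5 wells were Fabp4+, against 79 Fabp4- wells, and a gene was called where summed reads and the mean of per-well CPM were both at least 2-fold apart in one direction. Of 11345 measured genes, 12.3% were called higher and 37.7% lower. Of the 15 genes named higher in CLEC, 11 were called higher here and 1 lower, and of the 15 named lower, 8 were called lower and 2 higher. Gpihbp1 had reads in 5 of 5 Fabp4+ wells, between 288.6 and 2890 CPM, and 45 of 79 Fabp4- wells. Abcc9 was found in 4 of 5 Fabp4+ and 32 of 79 Fabp4- wells, whereas Aqp1 and Kcnj8 each had reads in 1 of 5 Fabp4+ wells. With 5 wells the ratios turn on single wells. Pltp had reads in 0 of 5 Fabp4+ and 42 of 79 Fabp4- wells.

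Among lists, 7 of 17 tip genes were called higher and 0 lower in the 5 Fabp4+ GFP- EC wells, beside 12.3% of all genes called higher there. Apln had reads in 4 of 5 Fabp4+ and 36 of 79 Fabp4- wells. Of venous genes 7 of 9 were called lower and 0 higher, and of proliferation genes 10 of 13 and 0, beside the 37.7% of all genes called lower there.

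In lymph node GFP- EC, 37 wells were Fabp4+ and 37 Fabp4-. Pool A (24 Fabp4+ and 16 Fabp4- wells) and pool B (8 and 18) were used, and pool C, with 5 and 3, was not. Here a call needed both pools, and 7.72% of 10950 measured genes were called higher and 9.57% lower. Of 12 measured genes among those named higher in tumour CLEC, Aqp1 alone was called higher, and Xylt1 and Ripk3 were called lower. Aqp1 was at 1024 CPM in Fabp4+ and 262.4 CPM in Fabp4- wells, a ratio of 2.11 (1.70 in pool A and 2.51 in pool B). Gpihbp1 had a ratio of 0.51 in pool A and 2.10 in pool B.

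The tip genes had 1 of 13 called higher and 1 lower in lymph node, close to the 7.72% and 9.57% of all measured genes. Apln had 0 reads in both sides there. Of 12 measured genes named lower in the tumour, 1 was called higher and 0 lower. The lymphatic transcription factor Prox1 had reads in 14 of 37 Fabp4+ and 13 of 37 Fabp4- wells. Whether tumour and lymph node differ in these ratios was not tested.

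**Figure D5:**
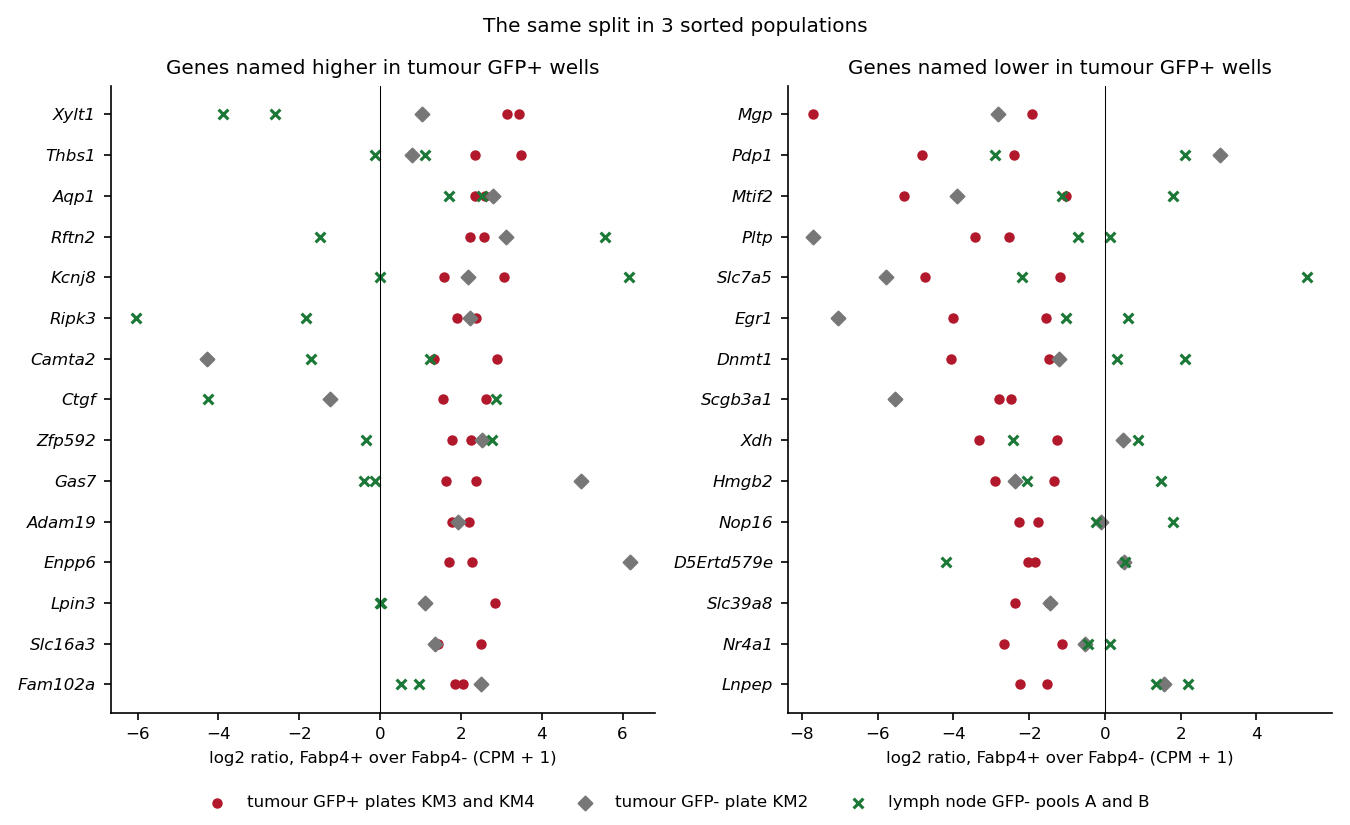
Log2 ratio of Fabp4+ over Fabp4- wells (CPM + 1) for each named gene on tumour GFP+ plates KM3 and KM4 (red), on the tumour GFP- plate KM2 with 5 Fabp4+ wells (grey diamonds) and in lymph node GFP- pools A and B (green crosses, only genes measured there). Of the 15 genes named higher, 11 were called higher on KM2, beside 12.3% of all measured genes. Of the 12 measured in lymph node 1 was called higher, beside 7.72%.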

How the data were processed

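Single cells were sorted into plates, amplified by a modified SMART-seq2 protocol that mentions no molecular identifiers, and prepared with Nextera XT, per the labels' protocols. The deposited tables hold counts of reads per gene that the authors had not normalized. The submitters' processing notes name the build mm10 and the tools STAR 2.4.1b, Subread 1.4.6-p2 and FastQC 0.11.4, with no roles given. Both tables were used, and 0 columns lacked a sample. Rows sharing a symbol were summed.

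Members, gene lists and settings were chosen with earlier results of these data known. Levels are CPM of summed counts with exact Poisson 95% intervals, ratios are log2 of CPM plus 1, and shares carry Clopper-Pearson 95% intervals. A gene was measured if one side reached 1 CPM and 5% of wells; Fabp4 was left out. Named genes were the 15 called genes of largest ratio in each direction that reached 20 CPM and 25% of wells on the higher side of both plates, without predicted, ribosomal, mitochondrial and pseudogenes. Aqp1, Gpihbp1 and Kcnj8 were always named; from lists, called genes and up to 4 others by size were named, and further examples were chosen after their values were seen. The 30 lists hold 285 genes, of which all were found, 3 under an older symbol. Promoters are from RefSeq and gene positions from GENCODE vM21, both on GRCm38. No p-value was computed, since no label names an animal. Reads per well ran between 58373 and 2607888 for Fabp4+ and between 65931 and 2241724 for Fabp4- wells. Scripts ran in Python 3.11.15 with scipy 1.17.1 and were tested on simulated data.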

Additional observations from a re-analysis of the deposited data

Results flagged for a closer look

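In lymph node, 12 genes named higher and 12 named lower were measured. Of these, Xylt1, Ripk3, Gas7, Dnmt1 and Lnpep pointed one way on both tumour plates and the opposite way in both lymph node pools. The difference was not tested, and the genes had been chosen for their tumour ratios. Gas7 was only at -0.39 in pool A and -0.13 in pool B, and Dnmt1 only at 0.31 in pool A. Xylt1 had reads in 0% of Fabp4+ and 5.90% of Fabp4- lymph node wells (means of the pools). Shares of the 2 sides differed little for Ripk3 (16.7% and 17.7%), Dnmt1 (18.8% and 14.9%) and Lnpep (16.7% and 12.2%). For Gas7 the share was larger in Fabp4+ wells (60.4% and 41.3%), unlike its ratio. Log2 ratios of Fabp4+ over Fabp4- wells were 3.29 in tumour CLEC and -3.24 in lymph node EC for Xylt1, 2.14 and -3.94 for Ripk3, and 2.00 and -0.26 for Gas7. They were -2.78 and 1.22 for Dnmt1 and -1.89 and 1.77 for Lnpep.

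Among the 5 Fabp4+ wells of tumour GFP- EC, a single well, not the same for each gene, stood far above the others. For Aqp1 it held 291.1 CPM, with the others at 0, and had 0 reads of Kcnj8 and Esm1. A different well held the highest Kcnj8 (776.8 CPM, the others at 0) and Esm1 (382.7 CPM, the next at 48.5 CPM), with 0 reads of Aqp1. In the 79 Fabp4- wells of that plate, Aqp1 had reads in 5, Kcnj8 in 10 and Esm1 in 12. How often chance would flag a gene found in so few wells was not computed.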

How the results depend on the processing

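Direction was followed for the named genes, some list genes and the list medians, and not for most called genes. The 15 alternatives run reversed no followed ratio or median that was at least 2-fold apart. All 15 genes named higher stayed above 0 and all 15 named lower below 0 in each, and Aqp1, Kcnj8 and Gpihbp1 kept their calls in all 13 that could change a gene's call; Abcc9 lost it in 4. The share of measured genes called depended on the setting. Beside 3.51%, genes called higher made up 2.23% with the highest well of each gene left out, 1.66% with a pseudocount of 5 CPM, 8.11% with plates pooled, 2.04% with no filter on low genes, 2.71% with a filter of 10 CPM and 10% of wells, and 12.59% with either plate left out (12.589 to 12.591%). Beside 5.16%, genes called lower made up 2.64% with that pseudocount, 9.28% pooled, 3.42% with that filter and 14.5 to 18.2% with 1 plate left out. Shares with 1 plate need only that plate to pass.

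The ratio of Aqp1 was 2.19 by per-well means, 2.82 without the highest wells and 2.23 without wells that held reads of 5 or more proliferation genes (cycling wells), a setting chosen after seeing the data. For Gpihbp1, whose 2 plates were nearly equal, it was 1.50 with the split at 10 reads, 1.404 at 10 CPM, 1.29 thinned, 1.63 with the stricter well filter, 1.48 with a minimum of 1000 reads only, 1.29 by per-well means, 1.46 without the highest wells and 1.38 without cycling wells. Medians of the channel list were 0.76 by per-well means, 0.74 without the highest wells, 0.78 with the larger pseudocount, and 0.73 to 1.12 with 1 plate left out. The tip list was at 0.87 thinned, 0.92 without the highest wells and 0.90 to 0.97 with 1 plate left out. The proliferation list, at -2.40, was at -0.40 to -3.87 with 1 plate left out and -0.56 without cycling wells. The causes were not tested. Leaving out wells with Ptprc reads, or with reads of neither Pecam1 nor Cdh5, was not run, since 0 wells met it. Apart from the setting with plates pooled, the CLEC ratios were taken inside each plate, so plate acts as the block. A test paired by plate was not run, since there were only 2 plates and no label names an animal. Well numbers were given in accession order and pair no wells. Depth was alike on the 2 sides, and the number of wells limits what can be said of genes found in few of them.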
